A study of Mus musculus with 12 samples.

Results

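The genes described here encode the proton pump of the lysosome (the vacuolar ATPase, V-ATPase), the cathepsin proteases that work in the acid the pump makes, and the lysosomal membrane proteins Lamp1 and Lamp2. They were chosen by symbol: 22 V-ATPase genes (12 of the V1 sector, 8 of the V0 sector and 2 accessory subunits), 14 cathepsins and both Lamp genes, which is 38 of the 18194 genes that had a probe set naming a single gene. The rule read names only, but the family was taken up because the values of Ctsf and Ctse in hypoxia were known. The values of those genes are therefore given as a description, without a test, and the counts that include them are given beside the count over all genes. Expression was measured in whole blood drawn from the inferior vena cava of C57Bl/10 mice aged 3 months, 4 mice per group and 1 mouse per Affymetrix Mouse 430 2.0 array. The normoxia group (NX) breathed 21% oxygen throughout. The chronic hypoxia group (CH) spent 14 days in hypoxia in which the oxygen level was taken down to 8%, and the recovery group (REC) had the same 14 days followed by 14 days at 21%. The comparison of CH with NX asks what hypoxia changed, and that of REC with NX asks what remained different after the return to normoxia. The methods describe 14 days for NX, so the course of the REC mice was longer and had no time-matched normoxic group. Elapsed time and recovery cannot be told apart in REC against NX. The legend of the protocol figure differs: it puts 14 days of normoxia before the hypoxia of CH and REC, and gives NX 14 days. By that account the course of CH was also longer than that of NX. Elapsed time and hypoxia could then not be told apart in CH against NX.

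The V-ATPase is a rotary motor: its V1 sector outside the membrane splits ATP, and the V0 sector in the membrane moves protons into the lysosome. Cathepsins are made as inactive precursors and need acid to mature and to cut protein, while Lamp1 and Lamp2 coat the inner face of the lysosomal membrane. In blood, lysosomes belong chiefly to leukocytes and platelets, and a maturing red cell degrades its own lysosomes and other organelles.

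Transcription of many lysosomal genes is controlled by TFEB and its relatives, which bind an element with the core CACGTG. Promoter sequence (RefSeq, GRCm38.p6) was at hand for 28 of the 38 genes, in 30 windows of 250 bases upstream of a start site. CACGTG, searched on both strands, was in 7 of these windows (23.3%), those of Atp6v0b, Atp6v1a, Ctsa, Ctsd, Ctsf, Ctsl and Lamp1, and in 6.02% of all 32851 windows. Shown are the windows of Ctsf, Atp6v0b and Lamp1. Ctsf had the largest change between CH and NX among the 38 genes on the log2 scale used below. Atp6v0b fell in CH, and Lamp1 did not pass the test and held the most copies of the core. All read 5′ to 3′ on the strand of the gene and end at the base before the start site, and the capitals mark CACGTG. The Ctsf window is chr19:4854915-4855164 on the plus strand, the Atp6v0b window chr4:117887330-117887579 on the minus strand and the Lamp1 window chr8:13158911-13159160 on the plus strand.
Ctsf: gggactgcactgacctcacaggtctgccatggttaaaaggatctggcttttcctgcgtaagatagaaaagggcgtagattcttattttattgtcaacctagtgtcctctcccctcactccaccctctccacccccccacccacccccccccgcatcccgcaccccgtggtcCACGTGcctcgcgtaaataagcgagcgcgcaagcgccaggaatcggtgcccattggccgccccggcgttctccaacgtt
Atp6v0b: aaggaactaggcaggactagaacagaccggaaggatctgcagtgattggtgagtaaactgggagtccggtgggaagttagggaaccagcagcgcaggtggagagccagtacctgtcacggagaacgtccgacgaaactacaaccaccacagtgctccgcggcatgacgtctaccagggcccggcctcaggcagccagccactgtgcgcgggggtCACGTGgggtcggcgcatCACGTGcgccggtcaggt
Lamp1: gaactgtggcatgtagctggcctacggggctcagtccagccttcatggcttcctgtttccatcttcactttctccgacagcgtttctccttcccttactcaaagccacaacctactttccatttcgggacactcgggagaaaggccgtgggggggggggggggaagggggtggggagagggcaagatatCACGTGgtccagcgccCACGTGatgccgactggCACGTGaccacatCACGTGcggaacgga
The core began 79 bases before the start in Ctsf, 36 and 18 bases before it in Atp6v0b, and at 4 places in Lamp1. Genes with the core thus included one far above NX in CH, 2 called lower (Atp6v0b and Ctsa) and 4 that were not called (Atp6v1a, Ctsd, Ctsl and Lamp1). Among the other motifs, AGATAA, a site of the erythroid GATA factors, was in 2 windows (6.67%, against 9.99% of all windows), and TGATAA, which shares GATAA with it, was in 1 (3.33%, against 7.94%). CCAAT was in 9 windows (30.0%, against 33.8%), and GCGTG, the core bound by hypoxia-inducible factors, was in 15 (50.0%, against 28.2%). These counts describe letters in the windows and were not tested.

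Each value is a deposited signal on a linear scale, and differences are on the log2(signal + 16) scale, which understates the change of dim genes. A gene was called when the adjusted p-value of limma, taken over all 45101 probe sets, was under 0.05 and the change was at least 2-fold. It was read from its brightest single-gene probe set. Of the 38 genes, 9 were dim, with a mean log2 value under 5.80, the median of all probe sets: Atp6v1b1, Atp6v1c2, Atp6v1e2, Atp6v1g2, Atp6v0a4, Atp6v0d2, Atp6v0e2, Ctsg and Ctsk.

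Several measures moved with the groups. The summed signal of 7 erythroid markers ranged from 20580 to 32060 on the NX arrays, from 95530 to 153700 on the CH arrays and from 4305 to 14760 on the REC arrays. Of the markers, 6 were called higher in CH and 5 lower in REC, and Hba-a1 was dim on the single-gene probe set that names it. The sum of 6 B cell markers was 15780 to 19710 in NX and 1959, 2203, 11190 and 4811 in the CH arrays, and that of 6 T cell markers was 4389 to 6120 in NX and 1107, 1014, 3828 and 1299 in CH. CH replicate 3 thus stood apart from the other CH arrays, with the highest B cell, T cell, NK cell and monocyte sums among them. In REC the T cell sum was 8060 to 8460, above all NX arrays. The NK cell sum was 2910 to 5025 in NX and 8314 to 13080 in REC, with 3 of its 6 markers called higher. The REC sums of B cell (19240 to 22460) and monocyte markers (8295 to 11830, against 7484 to 11670 in NX) overlapped NX. No marker was at a signal of 0, and the sums of kidney tubule, hepatocyte and endothelial markers were at most 349. The bacterial and phage hybridization controls, added in a fixed amount, had a mean log2 signal of 12.68 ± 0.44 (SD) in NX, 14.29 ± 0.25 in CH and 11.87 ± 0.23 in REC. Both groups differed from NX by a two-sided exact permutation test (p = 0.0286 each), the smallest p that 4 arrays against 4 allow. The ratio of 3′ to 5′ actin signal, a sign of RNA integrity, was 1.61 to 1.86 in NX, 1.91 to 2.11 in CH and 1.54 to 1.73 in REC, with p = 0.0286 for CH against NX by the same exact test. The part of RNA quality in the results below was not tested. Scaling the arrays on these controls lowers the CH values against NX and raises the REC values, and it turned the sign of the change of 11 of the 38 genes in CH and of 8 in REC. In these mixed cells, fewer cells of a type, less RNA per cell and a smaller share of the total RNA cannot be told apart.

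In CH, 7 of the 38 genes were called higher than NX and 11 lower, and 20 were not called. Among the 18194 genes, 9.08% were called higher and 19.5% lower. The 7 were the V-ATPase subunits Atp6v1f, Atp6v1g1 and Atp6v0d1 and the cathepsins Ctsb, Ctse, Ctsf and Ctsk. The 11 were Atp6v1c1, Atp6v1h, Atp6v0a2, Atp6v0b, Ctsa, Ctsh, Ctso, Ctss, Ctsw, Ctsz and Lamp2. Of the V-ATPase genes, 3 were called higher and 4 lower, against 0 higher and 12 lower after scaling on the hybridization controls. Of the cathepsins, 4 were called higher and 6 lower, against 3 and 8 with that scaling. Over all 18194 genes the same scaling called 273 higher and 8174 lower. Quantile normalization called 4 of the 38 genes higher in place of 7, among them 1 of the V-ATPase, and 1464 of all genes higher. The median log2 change from NX to CH was 0.19 over the V-ATPase genes, -0.85 over the cathepsins and 0.05 over all genes. With scaling on the hybridization controls these medians were -1.06, -2.41 and -0.84, in that order. The 4 CH arrays lay wholly above NX for 9 of the 38 genes and wholly below for 9, against 11.0% and 21.4% of all genes. Without CH replicate 3, 7 genes were called higher and 13 lower, against 1998 and 4069 of the 18194 genes.

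**Figure D1:**
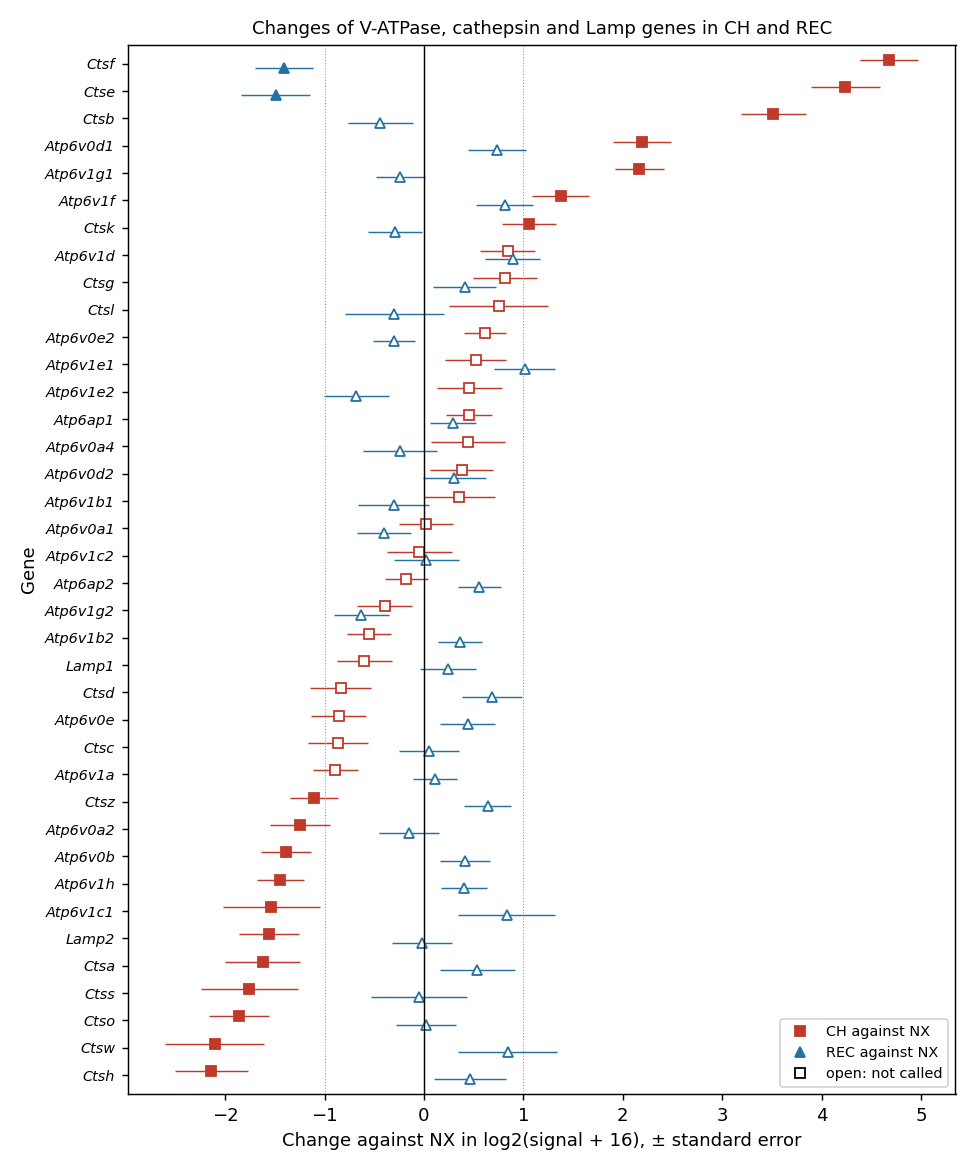
Log2 change of each of the 38 genes in CH against NX and in REC against NX, on the log2(signal + 16) scale, with bars of ± 1 standard error from limma (4 arrays per group) and filled points for called genes. In CH, 7 genes were called higher and 11 lower, and in REC 0 higher and 2 lower (3 and 22 in CH, and 17 and 1 in REC, after scaling on hybridization controls). That scaling called 273 of all 18194 genes higher and 8174 lower in CH, and 4377 and 121 in REC.

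Ctsf, a cysteine protease, gave signals of 75.3, 61.5, 47.2 and 68.7 on the NX arrays, 1839, 2092, 1711 and 2378 on the CH arrays and 37.4, 3.11, 12.8 and 9.93 on the REC arrays. All CH arrays were far above all NX arrays, and all REC arrays were below them. The mean signal in CH, 2005 ± 295 (SD, n = 4), was 31.7 times that in NX (63.2 ± 12), and the log2 change was 4.68 in CH and -1.41 in REC. The other probe set of Ctsf, which was dim, changed by 1.13 in CH and 0.09 in REC. Ctse, an aspartic protease also known from the red cell membrane, gave 269.9, 724, 517 and 526 in NX, 8096, 11536, 6418 and 12920.0 in CH and 263, 142, 174 and 101 in REC. Its CH arrays again lay apart from all others, and its REC arrays were below the NX arrays. Its mean signal was 9742 ± 3004 in CH, 19.1 times the 509 ± 186 in NX, and it changed by 4.24 in CH and by -1.49 in REC on the log2 scale. The probe sets of Ctse disagreed: the other one had mean signals of 449.5 in NX, 463 in CH and 292 in REC, a log2 change of -0.08 in CH.

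Ctsb, a cysteine protease with both endopeptidase and exopeptidase activity, gave 1396, 4032, 2700.4 and 2893 in NX, 22761, 28562, 28446 and 41724 in CH and 2490.3, 1668, 1379.8 and 2254 in REC. The CH arrays were all above the highest NX array, and the NX and REC arrays overlapped. Ctsb rose by 3.52 on the log2 scale in CH (SE 0.33, limma adjusted p = 6e-06), and its change in REC was -0.44 (adjusted p = 0.552, 0.37 with the hybridization controls). Of its 4 other probe sets, 3 were called higher in CH, by 3.95, 1.39 and 1.12, and 1 was not, with -0.50. Ctsk, the collagen-cutting protease of osteoclasts, was dim, with 17, 8.61, 2.36 and 3.89 in NX, 35.2, 20.5, 24.6 and 57.7 in CH and 1.97, 1.30, 5.79 and 3.35 in REC. The lowest CH array was above the highest NX array. Ctsk rose by 1.06 in CH (SE 0.27, limma adjusted p = 0.00903), and 7 of 25 alternative settings ended the call, among them quantile normalization, median centring, scaling on the hybridization controls and leaving out CH replicate 4.

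**Figure D2:**
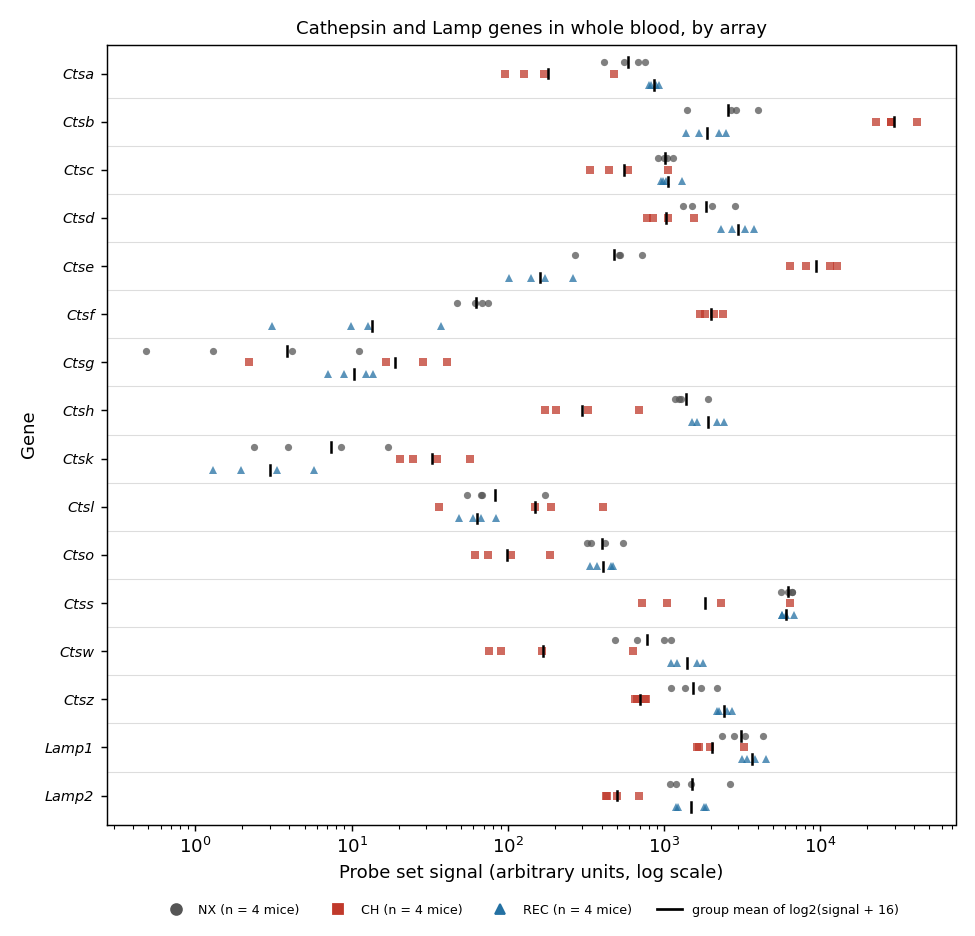
Signal of each cathepsin gene and of Lamp1 and Lamp2 on the 12 arrays, on a log axis, with 1 point per array and a bar at the mean log2 value of each group. The CH arrays of Ctsf (1711 to 2378) and Ctse (6418 to 12920.0) stand above all NX and REC arrays, and CH replicate 3 of Ctss (6414) lies among the NX arrays.

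The cathepsins that fell in CH were led by Ctsh, an aminopeptidase, which gave 1174, 1256, 1906 and 1280.1 in NX, 172, 202, 689 and 329 in CH and 1619, 2196, 2433 and 1519 in REC. All its CH arrays were below the NX arrays, and replicate 3 was the highest of the CH arrays. The log2 change was -2.14 (SE 0.36, limma adjusted p = 0.000602), and -2.52 without that replicate. Ctsw, a protease of NK cells and cytotoxic T cells, gave 489, 1109, 996 and 672 in NX, 90.4, 75.7, 635 and 166 in CH and 1627, 1103, 1215 and 1792 in REC. CH replicate 3 overlapped the NX arrays, and the other CH arrays lay below them. Ctsw fell by 2.10 in CH (SE 0.50, limma adjusted p = 0.00544) and by 2.71 without that replicate, and its change in REC was 0.84 (adjusted p = 0.423). Ctso, a widely expressed cysteine protease, gave 421, 320.1, 550.2 and 341 in NX, 104, 74.6, 188 and 61.4 in CH and 336, 456, 470.3 and 371 in REC. Its CH arrays were all below the NX arrays, with a change of -1.86 (SE 0.30, limma adjusted p = 0.000451), while a second probe set changed by 0.25 and was not called.

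Ctss cuts the invariant chain in antigen-presenting cells. Its NX arrays ran from 5640.0 to 6658 and its REC arrays from 5666 to 6795, whereas the CH arrays gave 1049, 727, 6414 and 2325. Replicate 3 was thus at the NX level and the other CH arrays below it. The change was -1.76 (SE 0.49, limma adjusted p = 0.0139), and -2.35 without replicate 3. Ctsa, which protects lysosomal β-galactosidase and neuraminidase, changed by -1.62 (limma adjusted p = 0.00487, -2.06 without replicate 3), and Ctsz, a carboxypeptidase, by -1.11 (0.00302), with all 3 of its probe sets called lower. The call of Ctsz was lost without NX replicate 2. Replicate 3 was the highest CH array for 8 of the 11 genes called lower (Atp6v1c1, Atp6v1h, Atp6v0b, Ctsa, Ctsh, Ctso, Ctss and Ctsw), and replicate 4 was the highest for all 7 genes called higher. The same counts over all called genes were not made, and the 7 include Ctsf and Ctse. Among the CH arrays, replicate 3 had the highest B cell, T cell, NK cell and monocyte sums. Replicate 1 had the highest neutrophil sum (53240, against 37350 in replicate 3). Replicate 4 had the highest erythroid sum and the highest sum of platelet markers (54430, against 31390 to 35580 on the other CH arrays). The part of cell composition in these values was not tested.

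The other cathepsins were not called in CH. Ctsc, which activates the serine proteases of granules, changed by -0.87 and Ctsd, the main aspartic protease of lysosomes, by -0.84, both short of 2-fold. Ctsg, a granule protease of neutrophils, was dim, with mean signals of 4.29 in NX, 22 in CH and 10.5 in REC. The probe sets of Ctsl, a cysteine endopeptidase, went opposite ways, by 0.75 (-0.52 with the hybridization controls) and -0.75, and neither was called.

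Among the V-ATPase genes, Atp6v0d1, whose product joins the rotor of V0 to the stalk of V1, gave 324, 553, 565 and 426 in NX, 1693, 2360.0, 1490.3 and 3567 in CH and 747, 825, 859 and 659 in REC. The 3 groups did not overlap, with CH highest and NX lowest. Atp6v0d1 rose by 2.20 in CH (SE 0.29, limma adjusted p = 9.13e-05), and its change in REC was 0.73 (adjusted p = 0.191). Scaling on the hybridization controls ended the call in CH, with a change of 0.60. Atp6v1g1, a subunit of the outer stalk, gave 4152, 3195, 3248 and 5486 in NX, 15737, 18423, 14330.1 and 23474 in CH and 3484, 3105, 3699 and 3044 in REC. The CH arrays were all above NX and REC, which overlapped. It rose by 2.17 (SE 0.25, limma adjusted p = 2.78e-05), but by 0.63 after quantile normalization and 0.56 with the hybridization controls, neither of them called. A second probe set rose by 2.37, and the dimmest changed by 0.61 and was not called.

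Atp6v1f, a small subunit of V1, gave 777, 1358, 1003 and 1477 in NX, 2118, 2656, 2803 and 4684 in CH and 2402, 2009.9, 1797 and 1752 in REC. Both CH and REC lay wholly above NX and overlapped each other. Atp6v1f rose by 1.38 in CH (SE 0.29, limma adjusted p = 0.00239), and its change in REC was 0.81 (adjusted p = 0.133). The change in CH was 0.97 after quantile normalization and -0.22 with the hybridization controls, neither of them called.

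**Figure D3:**
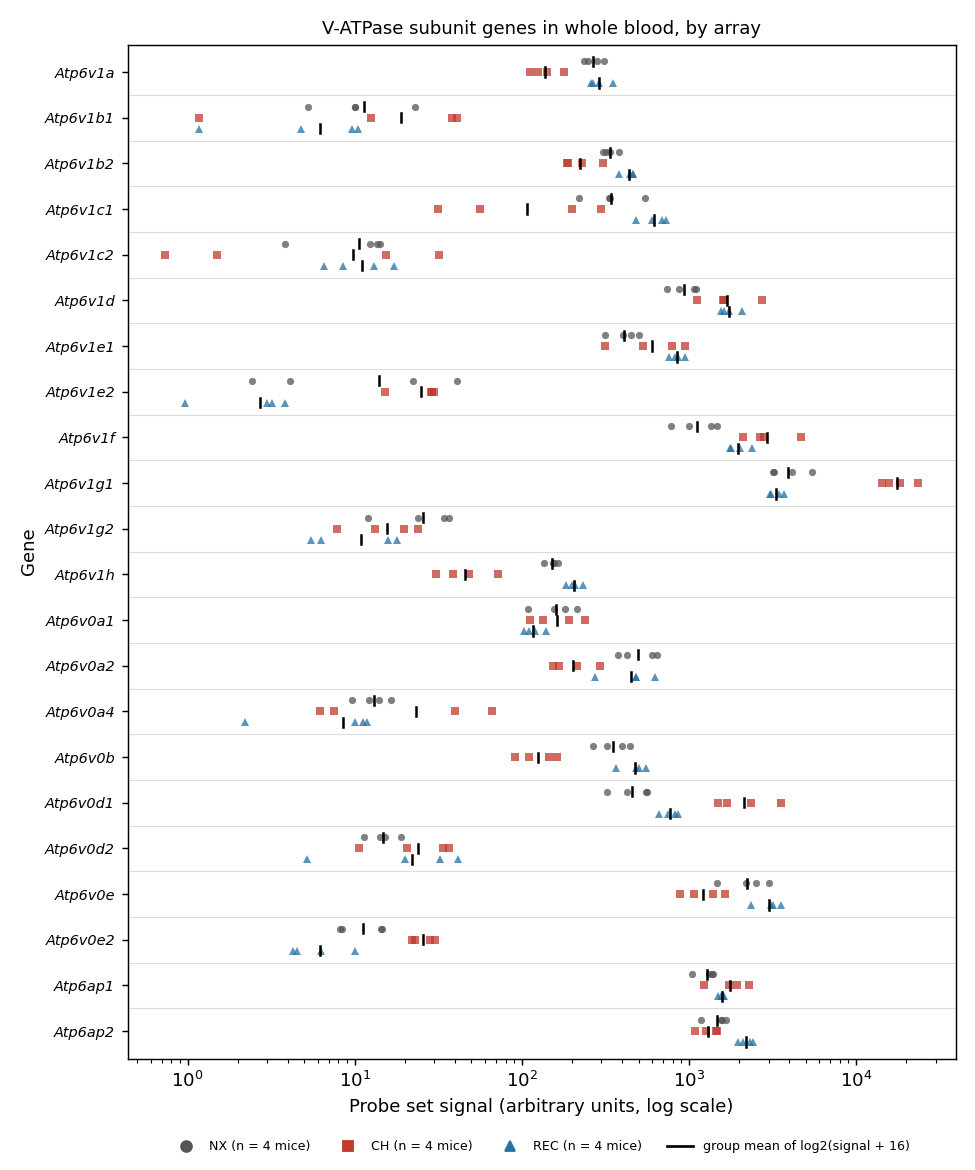
Signal of each V-ATPase gene on the 12 arrays, on a log axis, with 1 point per array and a bar at the mean log2 value of each group. Atp6v0d1 and Atp6v1g1 were highest in CH, Atp6v1f was above NX in both CH and REC, and Atp6v1c1, Atp6v1h and Atp6v0b were lowest in CH. With scaling on the hybridization controls the change of Atp6v1f in CH turned to -0.22.

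Atp6v1c1, the C subunit that holds V1 to V0, gave 221, 543, 331 and 336 in NX, 31.3, 56, 298 and 199 in CH and 695, 725, 598 and 485 in REC. CH replicate 3 lay within the NX range and the others below it. The change was -1.53 (SE 0.49, limma adjusted p = 0.0297), all 3 probe sets were called lower, and 10 of 25 settings ended the call of the first, leaving out CH replicate 1 or 2 among them. Without CH replicate 3 the change was -1.98. Atp6v1h, the regulatory H subunit, gave 153, 136, 164 and 155 in NX, 38.8, 48.1, 71.9 and 30.7 in CH and 185, 209, 232 and 199 in REC. Its CH arrays were all below the NX arrays. It fell by 1.44 (SE 0.23, limma adjusted p = 0.000416), while its 2 dim probe sets were not called. Atp6v0b, a proteolipid of the rotor ring, gave 267, 442, 396 and 325 in NX, 110.5, 91, 163 and 145 in CH and 368, 556, 503 and 486 in REC. The CH arrays were again all below the NX arrays, and the change was -1.39 (SE 0.25, limma adjusted p = 0.000959). One more of its probe sets was called lower and another changed by 0.05. Atp6v0a2, an a subunit that helps to place the pump on its membrane, changed by -1.24 in CH (limma adjusted p = 0.00617) and was not called after quantile normalization (-0.95).

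Of the catalytic head, Atp6v1a changed by -0.89 in CH and Atp6v1b2, the B subunit of most cells, by -0.56, neither of them 2-fold. Atp6v0e, a small V0 subunit, changed by -0.86 in CH and was not called, but passed with quantile normalization (-1.12) and median centring (-1.02). Atp6v1d, of the central stalk, changed by 0.84 on the probe set used (-0.75 with the hybridization controls), and a second probe set was called higher, by 1.07. Atp6v0a1, another a subunit, changed by 0.02 on its brightest probe set (-1.39 and called lower with those controls), and another was called higher, by 1.41. Atp6v1e1, of the outer stalk, changed by 0.52, and the accessory subunits Atp6ap1 and Atp6ap2 by 0.45 and -0.18, where scaling on the hybridization controls gave -1.03, -1.14 and -1.77 and called all of them lower. The dim genes Atp6v1b1, Atp6v1c2, Atp6v1e2, Atp6v1g2, Atp6v0a4, Atp6v0d2 and Atp6v0e2, several of them tied to kidney, bone or brain, lay between -0.39 and 0.61 and were not called, and that scaling turned Atp6v1b1, Atp6v1e2, Atp6v0a4, Atp6v0d2 and Atp6v0e2 below 0.

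Lamp1 gave 2348, 3315, 2791 and 4309 in NX, 1677, 1618, 1979 and 3261 in CH and 4513, 3381, 3164 and 3822 in REC. The CH and NX arrays overlapped, and the change was -0.60 (SE 0.28, limma adjusted p = 0.127), but -1.16 and called after quantile normalization. Lamp2, which also serves in autophagy, gave 1196, 1488, 1099 and 2656 in NX, 423, 435, 500.2 and 690.4 in CH and 1814, 1187, 1232 and 1855 in REC. Every CH array was below every NX and REC array. Lamp2 fell by 1.56 in CH (SE 0.30, limma adjusted p = 0.0015), all 4 of its probe sets were called lower, and in REC it changed by -0.02 (0.79 with the hybridization controls and 0.14 with median centring).

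In REC, 0 of the 38 genes were called higher than NX and 2 lower, against 2.5% and 1.79% of all genes. The 2 were Ctse and Ctsf, for which passing the thresholds is a description only. Ctse no longer passed in 12 of 25 settings, among them median centring, a pseudocount of 1 and the omission of any 1 of replicates 2, 3 and 4 of NX or of REC, and Ctsf in 3, among them leaving out REC replicate 2. At an unadjusted p under 0.05, limma gave 7 higher and 3 lower, against 2007 and 1280 of all 18194 genes. Ctse and Ctsf, the only ones of the 38 genes called in REC, lay above NX in CH and below it in REC. The median log2 change was 0.30 over the V-ATPase genes, 0.04 over the cathepsins and -0.02 over all genes. All 4 REC arrays lay above the 4 NX arrays for 10 of the 38 genes, 8 of them V-ATPase genes, and below them for 2, against 12.6% and 8.88% of all genes. The largest of the REC changes that were not called were those of Atp6v1e1 (1.01, limma adjusted p = 0.0752), which had a second probe set called higher by 1.13, and Atp6v1d (0.89, 0.0825). Scaling on the hybridization controls called 17 genes higher and 1 lower in REC, and moved the median of all genes from -0.02 to 0.57. Over all 18194 genes it called 4377 higher and 121 lower.

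REC and CH were also compared directly, with the same CH arrays as above. Of the 38 genes, 7 were called higher in CH and 13 lower, against 12.3% and 23.3% of all genes, and the arrays of CH lay wholly above those of REC for 8 and below for 14, against 15.3% and 24.8%. The 7 held Atp6v1e2, a dim gene (1.14, limma adjusted p = 0.0143), in place of Atp6v1f, a call that quantile normalization, median centring, scaling on the hybridization controls, leaving out dim probe sets and the stricter p each ended. Ctsd (-1.52, 0.00128) and Atp6v0e (-1.30, 0.00223) were called lower in addition to the 11 genes named above. The difference between CH and REC was 6.09 for Ctsf and 5.73 for Ctse. It was 3.95 for Ctsb (limma adjusted p = 5.79e-07), -2.95 for Ctsw (0.000356), 2.41 for Atp6v1g1 (5e-06) and 1.46 for Atp6v0d1 (0.00129). With the hybridization controls that of Atp6v0d1 turned to -0.93, that of Atp6v1g1 to -0.017 and that of Atp6v1f, 0.57, to -1.84.

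Genes that work with the pump and the proteases were read from 5 lists, whose counts stand against 9.08% of all genes called higher and 19.5% called lower in CH, and 2.5% and 1.79% in REC. Scaling on the hybridization controls called far more of them higher in REC: 7 of 13 partners of the pump, 16 of 36 hydrolases, 12 of 27 membrane and sorting proteins, 11 of 22 genes of the TFEB list and 7 of 9 inhibitors. In CH it called 12, 30, 24, 16 and 6 of them lower, in that order. Over all 18194 genes that scaling called 4377 higher in REC and 8174 lower in CH. Among 13 partners and assembly factors of the pump, 1 was called higher in CH and 7 lower, with a median of -1.12. The gene called higher was Ncoa7 (1.14), which binds the pump and fell by 2.45 in REC, and its CH value was -0.46 with the hybridization controls. Those called lower were led by Dmxl1 (-1.75), which helps V1 and V0 to assemble, Oxr1 (-1.57), a relative of Ncoa7, and Ostm1 (-1.52), the partner of the lysosomal chloride exchanger. In REC, Rnasek, a small pump-associated protein, rose by 1.34. Without CH replicate 3, 0 partners were called higher and 8 lower, and after quantile normalization 0 and 5.

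Of 36 measured lysosomal hydrolases and activators outside the cathepsins, 2 were called higher in CH and 17 lower, with a median of -0.99. Idua, which breaks down glycosaminoglycans, rose by 1.61, and Lgmn, the asparaginyl protease that processes cathepsins, by 1.30 (0.06 and -0.10 with the hybridization controls). The largest falls were those of Scpep1 (-2.59), a serine carboxypeptidase, Manba (-1.73), the β-mannosidase, and Hexa (-1.72), which degrades gangliosides. In REC, 1 was called, Fuca1 (1.18), the lysosomal fucosidase, which was not called after quantile normalization (1.24).

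Of 27 measured membrane and sorting proteins of the lysosome, 1 was called higher in CH and 10 lower, with a median of -0.75. In REC 0 were called in either direction. With an unadjusted p under 0.05 in limma, 7 were higher and 1 lower in REC, against 2007 and 1280 of all 18194 genes. Laptm4a, a lysosomal transmembrane protein, rose by 1.50 (0.67 and not called after quantile normalization, -0.10 with the hybridization controls). Gga2 (-2.39), an adaptor for mannose 6-phosphate receptors, Lmbrd1 (-2.22), which exports cobalamin, and Pip4p1 (-1.74), a lipid phosphatase, had the largest falls.

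Of 22 measured genes of TFEB and the lysosomal mTORC1 platform, 4 were called higher in CH and 7 lower (3 lower after quantile normalization), with a median of -0.49. Fnip2 (3.31), a partner of folliculin, Rraga (1.72), a Rag GTPase, and Tfe3 (1.54), a relative of TFEB, had the largest increases, of which that of Tfe3 was -0.03 with the hybridization controls. Flcn itself (-2.02), its other partner Fnip1 (-1.59) and Lamtor5 (-1.35), a subunit of the Ragulator scaffold, had the largest decreases. Tfeb changed by -0.31 and was not called. In REC, Lamtor2 (1.70) and Lamtor5 (1.07) were called higher.

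Of 9 measured cathepsin inhibitors, 0 were called higher in CH and 3 lower: Serpinb1a (-2.28), which blocks granule serine proteases such as cathepsin G, and the cystatins Cstb (-2.06) and Cst3 (-1.62), which block cysteine cathepsins. In REC, Cst7 (1.23), a cystatin of cytotoxic cells, and Serpinb6b (1.21, not called after quantile normalization) were called higher, with a list median of 0.75. Over all genes the median change was 0.05 in CH and -0.02 in REC, and after scaling on the hybridization controls it was -0.84 and 0.57.

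**Figure D4:**
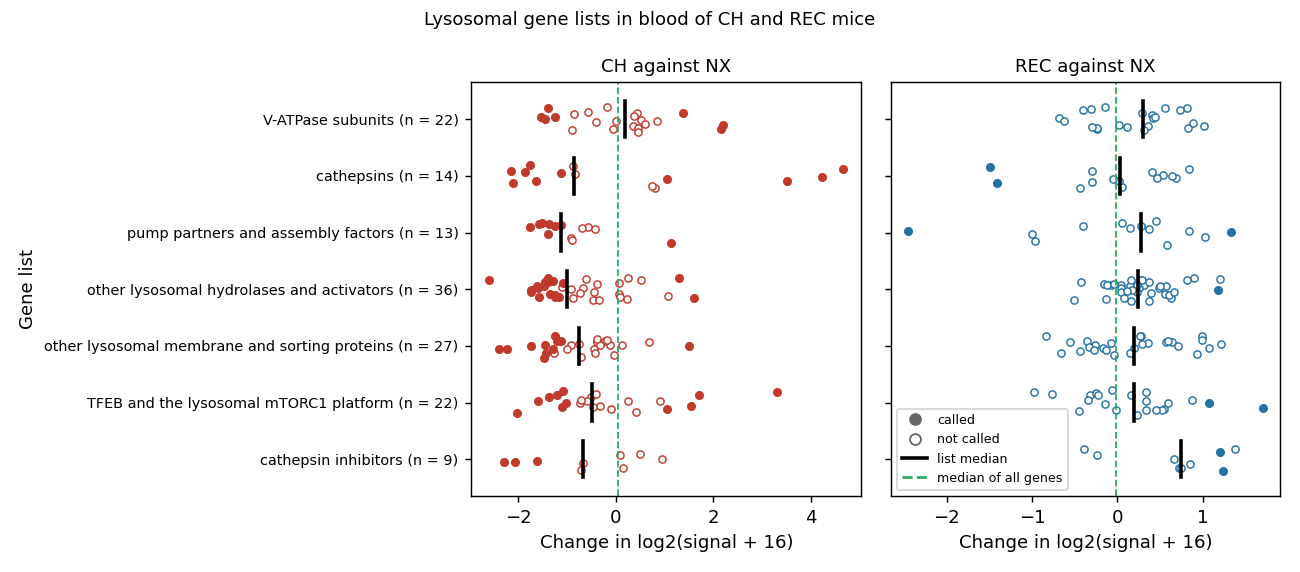
Log2 change, on the log2(signal + 16) scale, of every measured gene of the V-ATPase, the cathepsins and the 5 related lists in CH and in REC against NX, with 1 point per gene (filled where called), a bar at the median of each list and a dashed line at the median of all genes. In CH the median was 0.19 for the V-ATPase, -0.85 for the cathepsins and between -1.12 and -0.49 for the related lists. With scaling on the hybridization controls it was -1.06, -2.41 and between -2.32 and -1.84, and -0.84 for all genes. These medians and that of all genes include dim genes. Leaving out dimmer probe sets moved the median of all probe sets in CH from 0.11 to -0.34. It moved that of the 38 genes from -0.11 to -0.84.

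The arrays of a group differed most in CH. The median SD of the log2 values over the 38 genes was 0.364 on NX arrays, 0.452 on CH arrays and 0.215 on REC arrays, and the highest in CH was that of Ctss (1.38).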

How the data were processed

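RNA of whole blood from 12 mice was hybridized to Affymetrix Mouse 430 2.0 arrays, which the authors read on an Agilent scanner. The deposited intensities are linear signals, 1 for each probe set of an array, with the same 2% trimmed mean (150.0) on every array. The methods say that raw intensities were kept in Affymetrix's GCOS, but not whether GCOS computed these signals, which are not on the log2 scale of the GC-RMA step also described. Depth does not apply to arrays, whose number limits the precision. Groups follow the titles, although 1 label field calls the CH mice normoxic.

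Genes were assigned from the annotation of the platform (34958 name 1 gene, 932 several and 9211 none, with 34754 symbols matched by gene number). Log2(signal + 16) of all 45101 probe sets and 12 arrays was fitted with a mean per group in limma 3.58.1 (R 4.3.3, lmFit and eBayes, 9 residual degrees of freedom), and p-values were adjusted by Benjamini-Hochberg over all probe sets. Array measures were compared by exact permutation tests, in which 4 arrays against 4 cannot go below 0.029. Python 3.11.15 and matplotlib 3.10.9 made the tables and plots. The fit was tested on simulated data.

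The members and lists were chosen with earlier results of these data known. All 12 values were given for Ctsf, Ctse, Lamp1, Lamp2, up to 4 genes per family with the largest increases and 3 with the largest decreases among those called in CH, and up to 4 with the largest changes called in REC and between CH and REC. Up to 3 called genes per direction in CH and 2 in REC were named from each related list; Tfeb was named besides, and so were the values of other members and of CH replicate 3, which were chosen after they were seen. Alternatives changed the normalization between arrays (quantile, median, hybridization controls), pseudocount, dim filter, moderation, array weights, replicate block, arrays in the fit, thresholds and probe set rule, and left out each array. Atp6v0c and Atp6v1g3 were not analysed here.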

Additional observations from a re-analysis of the deposited data

Results flagged for a closer look

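Over 38 genes and 3 groups, 4 of 114 sets of 4 arrays held 1 array far from the other 3 by Dixon's criterion, and chance alone gives about 1 in 20. Atp6ap1 gave a signal of 1040 on NX replicate 1 and 1330 to 1390 on the other NX arrays. The other genes were dim. Atp6v1c2 gave 3.84 on NX replicate 4 and 12.3 to 14.1 on the rest, Atp6v1e2 gave 15.1 on CH replicate 4 and 28.6 to 29.8 on the rest, and Atp6v0a4 gave 2.21 on REC replicate 4 and 10.1 to 11.9 on the rest. No cause was tested.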

How the results depend on the processing

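Of 25 alternatives, scaling on the hybridization controls moved the counts most: in CH against NX 3 genes were higher and 22 lower (12% of calls higher, against 38.9%), in REC against NX 17 and 1 (94.4% against 0%), and in CH against REC 3 and 24 (11.1% against 35.0%). Over all 18194 genes it called 273 higher and 8174 lower, 4377 and 121, and 296 and 10986, in that order. It shifted the median of all probe sets, on the log2 scale, from 0.11 to -0.71, from -0.10 to 0.40 and from 0.25 to -1.13. It turned the change of Atp6v1f in CH against NX to -0.22, and in CH against REC that of Atp6v0d1 to -0.93, that of Atp6v1f to -1.84 and that of Atp6v1g1 to -0.017. The cause was not tested.

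Quantile normalization called 4 genes higher in CH than NX (26.7% of calls), and averaging all probe sets of a gene called 7 lower (50.0% higher), and ended the calls of Atp6v1h, Atp6v0b, Ctsa and Ctso. In REC against NX, leaving out dim probe sets and fitting only the 8 arrays compared each called 1 higher. The genes lower in REC were 1 with median centring, without moderation and with a pseudocount of 1, and 0 with averaged probe sets and with an adjusted p under 0.01. Leaving out each array in turn gave 6 to 9 genes higher and 9 to 13 lower in CH against NX, 0 to 1 higher and 0 to 2 lower in REC against NX, and 7 to 9 higher and 12 to 16 lower in CH against REC. The 0 lower in REC came without REC replicate 2. The calls of Ctsb, Ctsh, Ctsw and Lamp2 in CH passed under every alternative run.

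With the replicate number as a block the counts were 7 higher and 11 lower in CH, 0 and 2 in REC, and 7 and 13 in CH against REC, and no call was lost or gained. The mice of different groups were different animals, so the numbers do not pair them. Deviations of equal numbers correlated between -0.203 and 0.436, and those of unequal numbers were not compared.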
